A study of Mus musculus with 12 samples.

Results

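The mitochondrial respiratory chain genes were taken by symbol: names beginning with Nduf, Uqcr or Atp5 or with Cox and a digit, the genes Sdha to Sdhd, Cycs and Cyc1. In all, 77 such genes were measured among 10949 genes, by 92 probe sets, and each gene with more than 1 probe set was read from its brightest. Levels came from 1-colour expression arrays of 12 mouse ovaries, from mice 23 weeks old whose vaginal smears showed diestrus. The 6 control ovaries were Pgrcre/+ and had no tumor. The 6 others were Pgrcre/+PgrBLsL/+, 3 of them with a tumor of stage I and 3 with a tumor of stage II. Every mouse carried Pgrcre, which places Cre recombinase under the control of the progesterone receptor locus, so the allele is active where that gene is or has been active. PgrBLsL was present in all staged ovaries and absent from all controls, so allele and tumor cannot be told apart against the controls. The series title names constitutive expression of progesterone receptor isoforms and ovarian neoplasia as its subject, and the comparisons made here ask how far the respiratory chain differed between the 3 groups.

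The respiratory chain sits in the inner mitochondrial membrane. Complex I (NADH dehydrogenase) and complex II (succinate dehydrogenase) pass electrons to ubiquinone, complex III passes them on to cytochrome c, and complex IV (cytochrome c oxidase) passes them to oxygen. The proton gradient built on the way drives ATP synthase. Most subunits are encoded in the nucleus, as are all members described here, while a few central subunits of complexes I, III, IV and of ATP synthase are encoded in mitochondrial DNA. In the ovary, luteal cells are rich in mitochondria, which also carry out the first step of steroid synthesis.

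All levels are log2 values as the authors deposited them, and differences are between group means of log2 levels, with the standard error (SE) of the fit. A gene was called at an adjusted p under 0.05 from limma, with Benjamini-Hochberg adjustment across the 10949 genes. The arrays matched their labels by Pgr, the gene the allele is named for, at 3.74 to 4.60 in controls, 9.05 to 9.28 in stage I and 9.78 to 10.09 in stage II. Ovarian markers were present in controls, with Inha, an inhibin subunit of granulosa cells, at 13.44 and Zp3, a zona pellucida protein of oocytes, at 9.29 on average. Array medians over all probe sets lay between 7.09 and 7.15, and 0 pairs of arrays were identical. In bulk tissue, fewer cells of a type and less RNA per cell cannot be told apart.

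Most respiratory chain genes were bright and steady. The median control mean of the 77 genes was 11.29, against 7.43 over all genes, and 60 of them had control means over 10. Their median SD between the 6 control arrays was 0.09, the same as that of the 1548 genes of all kinds with control means over 10 (0.09). Atp5b, the catalytic beta subunit of ATP synthase, had the lowest SD (0.014) and Cox7a1, a complex IV isoform of muscle and brown fat, the highest (0.77). Control replicate 4 held the highest control value in 52 of the 77 genes, against 28.6% of all genes, and control replicate 2 the lowest in 30, against 15.6%. The precision of every value is limited by the number of arrays, 3 in each stage.

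Stage I ovaries showed no called respiratory chain gene, where 0.192% of all genes were called. The smallest adjusted p among the members was 0.696, and 1 of 77 had an unadjusted p under 0.05, Ndufs4, against 6.38% of all genes. The arrays of 0 members were all above or all below the controls, as those of 3.68% of all genes were (2.23% higher and 1.45% lower). Differences were small: 25 genes were above the controls and 52 below, with a median of -0.022 against -0.0015 over all genes, and 8 of 77 (10.4%) differed by over 0.1 in either direction, against 31.1% of all genes. The 1 difference over 0.2 was in Cox7a1, whose log2 difference was -0.52 ± 0.43 SE (adjusted p = 0.941). The next in size were those of Ndufs4 (0.19, adjusted p = 0.696) and Ndufaf7, a methyltransferase needed for complex I assembly (-0.16, adjusted p = 0.855).

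Stage II ovaries had 11 called respiratory chain genes against controls, 4 higher and 7 lower. That is 14.3% of the 77, where 21% of all genes were called, and by direction 5.19% rose, against 9.81% of all genes, and 9.09% fell, against 11.2%. At an unadjusted p under 0.05 there were 23 members (29.9%), against 33.6%. After quantile normalization 3 members were higher and 10 lower, against the 4 and 7 given here, and after centring 2 were higher and 7 lower. The shares of all genes called in these fits were 23.9% and 20.8%. Among genes with a mean over 10 on all arrays, the members' share was 15% (9 of 60) and that of all genes 32.7% (506 of 1546). Arrays did not overlap between stage II and control in 19 members, 24.7% of them, where the same held for 22% of all genes. By direction, 5 of the 77 were higher and 14 lower, against 1092 (9.97%) and 1319 (12%) of 10949 genes. Sizes were small too, with a median of 0.019 (all genes -0.014), 1 member past a difference of 0.5 (1.3%, against 9.51% of all genes) and 0 members past 1, a change of 2-fold (against 2.67%).

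**Figure D1:**
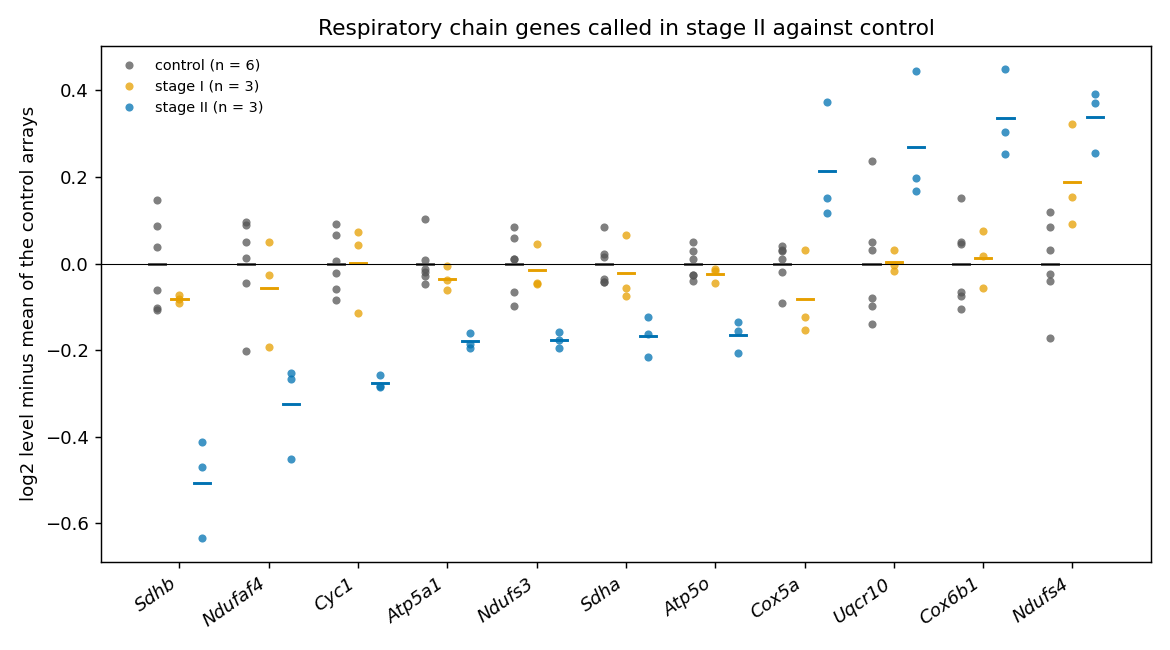
Log2 level of each array minus the mean of the 6 control arrays (vertical axis) for the 11 respiratory chain genes called in stage II against control. Each point is 1 array and each bar a group mean, and stage II lay outside the control range in all of them except Uqcr10.

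The count of 11 was sensitive to single arrays. Among controls, leaving out replicate 3 gave 7 and leaving out replicate 5 gave 6, where 16.5% and 17.3% of all genes were called. Leaving out stage I replicate 2, which enters here through the shared spread alone, gave 7, against 19.6% of all genes. Leaving out stage II replicates 1, 2 or 3 gave 6, 7 and 4 (7.79%, 9.09% and 5.19% of the members). The shares of all genes in these fits were 15.7%, 20.8% and 10.5%, so the count over all genes dropped as well. The 4 left without stage II replicate 3 were Sdhb, Cyc1, Cox6b1 and Ndufs4. With array weights the count was 22, 10 higher and 12 lower, against 29% of all genes in that fit. Without control replicates 1 and 4, which had the highest luteal scores, it was 16, 10 higher and 6 lower, or 20.8% where 24.2% of all genes were called.

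Sdhb, Cox6b1 and Ndufs4 are shown with their promoters because of the stability of their calls in stage II against control. Those calls held in all 22 alternative fits, including each array left out. The stretches are the 250 bases before the annotated start, from RefSeq (GRCm38.p6), read 5′ to 3′ on the gene's strand. Sdhb lies on the plus strand, at chr4:140961021-140961270, Cox6b1 on the minus strand, at chr7:30626115-30626364, and Ndufs4 on the minus strand, at chr13:114388095-114388344. Capitals mark a match to the ETS-type motif of GABPA, CCGGAAG, on either strand.
Sdhb: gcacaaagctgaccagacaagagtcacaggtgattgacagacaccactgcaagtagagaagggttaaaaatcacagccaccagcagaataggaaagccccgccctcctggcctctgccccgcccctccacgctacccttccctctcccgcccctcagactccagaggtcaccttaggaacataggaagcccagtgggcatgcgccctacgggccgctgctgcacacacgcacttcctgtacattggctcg
Cox6b1: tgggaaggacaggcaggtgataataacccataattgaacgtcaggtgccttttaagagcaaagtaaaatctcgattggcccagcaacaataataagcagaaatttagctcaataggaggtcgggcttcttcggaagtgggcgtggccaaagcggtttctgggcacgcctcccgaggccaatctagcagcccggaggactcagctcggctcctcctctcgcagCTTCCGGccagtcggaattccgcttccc
Ndufs4: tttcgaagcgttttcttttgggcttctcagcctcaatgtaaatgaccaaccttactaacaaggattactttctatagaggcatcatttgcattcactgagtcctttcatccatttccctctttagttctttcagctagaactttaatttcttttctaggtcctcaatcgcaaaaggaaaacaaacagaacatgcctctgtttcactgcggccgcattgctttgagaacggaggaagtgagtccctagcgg

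Promoter windows of 300 bases, from 250 before to 50 after the start, were listed for 64 of the 77 genes. They were searched on both strands for 4 motifs of factors known to act on nuclear genes of the respiratory chain. The NRF1 motif, GCGCA followed by any base and GCGC, was found in 14 of the 64 genes (21.9%), against 9.18% of 8743 measured genes with a window and 4.6% of all 32851 windows. The GABPA motif CCGGAAG was found in 17 (26.6%), against 15.9% of measured genes and 8.86% of windows. The YY1 motif AAGATGGCG was found in 7 (10.9%), against 2.83% and 1.4%, and the ERR motif AAGGTCA in 5 (7.81%), against 4.48% and 4.72%. GABPA and YY1 matches overlapped in 0 member windows. Among called genes with a window, NRF1 matches stood in 3 of 5 that fell (Atp5o, Ndufaf4 and Sdha) and in 0 of 4 that rose. GABPA matches stood in Ndufs3, Sdhb and Cox6b1, and a YY1 match stood in Ndufs4, from base 36 after the start. The match in Sdhb began at base 7 after the start and that in Cox6b1 at 28 bases before it. Such matches describe letters only and say nothing of binding in these ovaries.

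Complex II was measured by Sdha, Sdhb and Sdhd, of which Sdha and Sdhb fell in stage II (66.7% called, against 21% of all genes). The iron-sulphur subunit Sdhb showed the largest called difference of all members. Its controls ran from 11.48 through a median of 11.57 to 11.73, its stage I arrays stood at 11.50, 11.51 and 11.49, and its stage II arrays at 11.11, 11.17 and 10.95. All stage II arrays lay below all the others, and stage II replicate 3 was the lowest. The log2 difference from controls was -0.51 ± 0.07 SE (adjusted p = 0.000458), so the level fell by 29.6%. Against stage I it was -0.42 ± 0.08 SE (adjusted p = 0.00816), a call that ended in 1 of 22 alternatives (adjusted p = 0.0592).

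Sdha, the flavin-bearing subunit that oxidises succinate, ran from 11.37 through a median of 11.41 to 11.50 in controls. Its stage I arrays stood at 11.48, 11.34 and 11.36 and its stage II arrays at 11.25, 11.29 and 11.20. Stage II lay below both other groups without overlap, by a log2 difference of -0.17 ± 0.05 SE from controls (adjusted p = 0.0468). That call ended when any single control or stage II array was left out (adjusted p up to 0.199 over all alternatives). In a fit of every probe set it did not pass (adjusted p = 0.0516), while a further probe set of Sdha did, at -0.26 (adjusted p = 0.0404). Sdhd, a membrane anchor, stood at 10.71, 10.72 and 10.69 in stage II, inside the control range of 10.64 to 10.83 (log2 difference -0.05 ± 0.05 SE, adjusted p = 0.572).

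**Figure D2:**
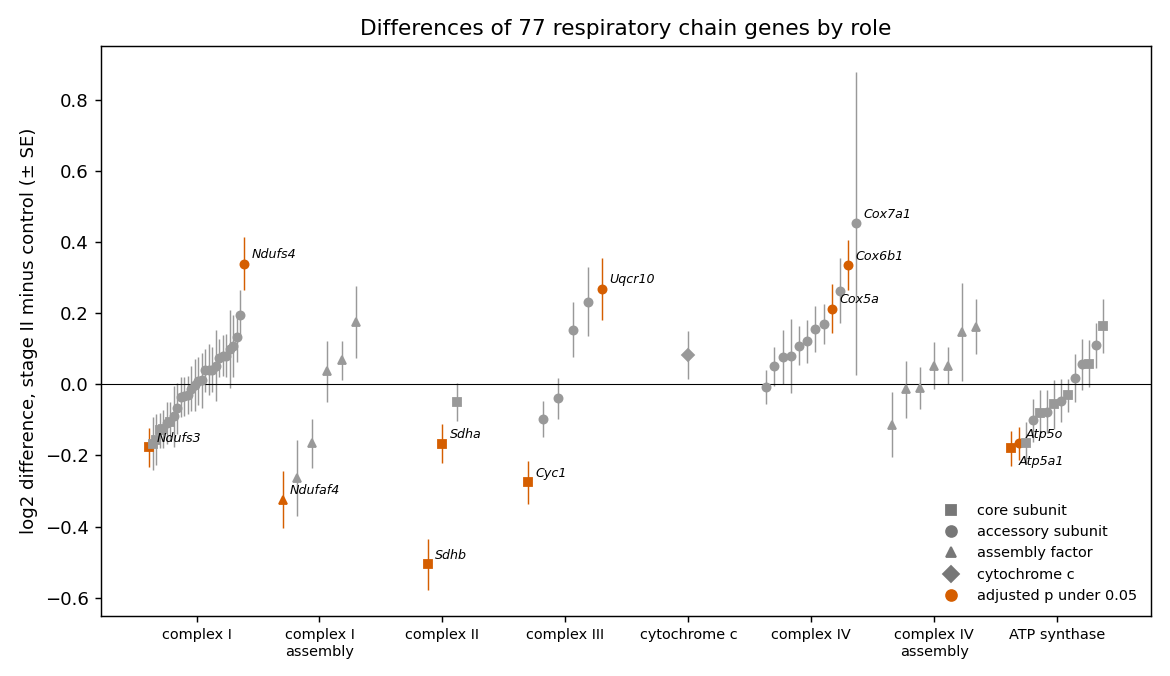
Log2 difference of stage II minus control, with its SE, for each of the 77 respiratory chain genes, grouped by role. Filled orange marks have an adjusted p under 0.05; Sdhb was the lowest at -0.51, and the 12 complex IV subunits lay above 0 except Cox6c.

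Sdhb is encoded on chromosome 4, as are Ndufaf4, Ndufaf6 and Ndufs5. All 4 were below controls in stage II, at log2 differences of -0.51, -0.32, -0.26 and -0.07, and the first 2 fell. That is 50% called, against 33.4% of all measured genes on the chromosome. Chromosome 4 was the chromosome with the lowest median difference in stage II over all its measured genes, -0.14 (626 genes, 179 lower and 30 higher), against -0.0089 over the 10323 other genes. The next lowest was chromosome 14, at -0.08, which held 0 members. The mean deviation of chromosome 4 genes was -0.09, -0.09 and -0.15 in stage II replicates 1, 2 and 3, against -0.012 to 0.017 in controls and -0.029 to 0.0097 in stage I. Of the 20 measured genes nearest to Sdhb in order, 15 were below 0 with a median of -0.12. Sdhb, at -0.51, lay below that median, and its neighbour Atp13a2, a lysosomal transport ATPase, was at -0.52. For Ndufaf4 the 20 nearest genes had a median of -0.20 and for Ndufaf6 -0.18. For Ndufs5 that median was -0.22, lower than the gene itself. The 73 members off chromosome 4 had 9 calls (12.3%), where 20.3% of all genes off it were called, and a median of 0.039. The part of the chromosome-wide difference in the Sdhb result was not tested.

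**Figure D3:**
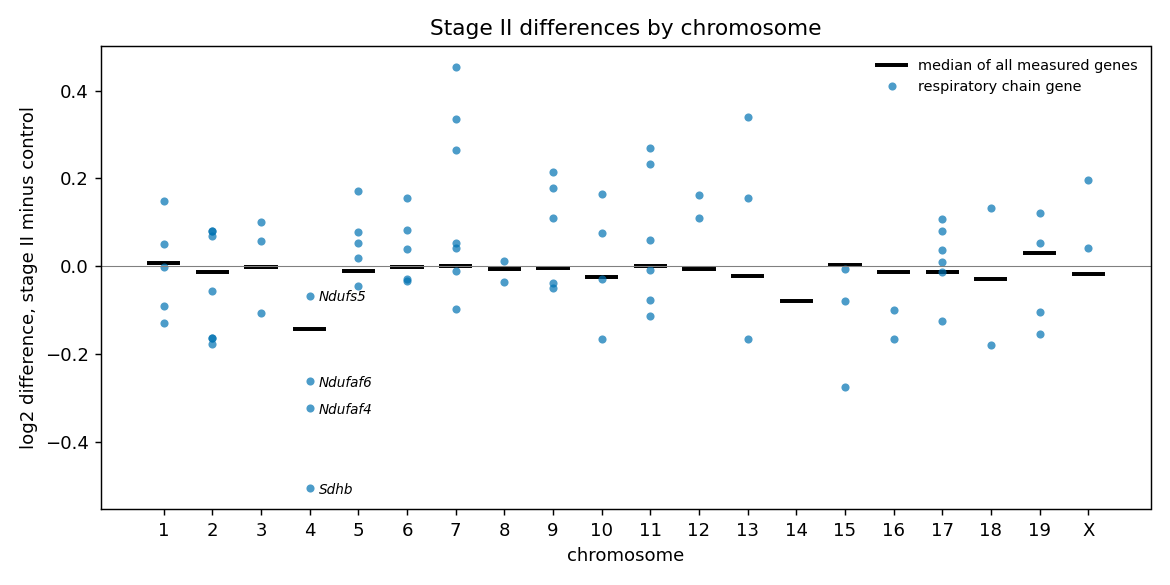
Log2 difference of stage II minus control by chromosome; black bars are medians over all measured genes of a chromosome and blue points are single respiratory chain genes. Chromosome 4 had the lowest median, -0.14, and its 4 respiratory chain genes all lay below 0.

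Complex III divided by subunit, with 1 of 6 genes higher in stage II and 1 lower (33.3% called, against 21% of all genes). Cyc1, the haem-bearing cytochrome c1, ran from 11.52 through a median of 11.60 to 11.70 in controls. Its stage I arrays stood at 11.68, 11.49 and 11.65 and its stage II arrays at 11.32, 11.35 and 11.32. Stage II lay below every other array, with a log2 difference of -0.28 ± 0.06 SE from controls (adjusted p = 0.00732) and -0.28 ± 0.07 SE from stage I (adjusted p = 0.0239). The call against controls ended in 1 of 22 alternatives and that against stage I in 6.

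The small subunit Uqcr10 rose in stage II, from a control range of 10.87 to 11.24 (median 10.98) and stage I values of 11.04, 10.99 and 11 to 11.18, 11.20 and 11.45. Its stage II arrays overlapped the controls, through control replicate 4 at 11.24. The log2 difference was 0.27 ± 0.09 SE (adjusted p = 0.0459), and the call ended in 15 of 22 alternatives (adjusted p up to 0.241), among them the fits without any 1 of control replicates 1, 2, 3, 5 and 6 or of the stage arrays. The small subunits Uqcrq and Uqcrb had differences of 0.23 ± 0.10 SE and 0.15 ± 0.08 SE (adjusted p = 0.114 and 0.179). The 2 large scaffold subunits Uqcrc1 and Uqcrc2 had -0.04 and -0.10 (adjusted p = 0.689 and 0.197). Cycs, the mobile carrier cytochrome c, had 0.08 ± 0.07 SE (adjusted p = 0.436), with stage II at 11.34, 11.25 and 11.50 and controls from 11.16 to 11.36.

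Among 12 complex IV subunits, 2 rose in stage II, 0 fell and 10 did not pass, while 11 of 12 were above 0, with a median of 0.14 (all genes -0.014). The called share was 16.7%, against 21% of all genes. Among those above 0, Cox7b2, Cox4i2 and Cox6a2 were dim, with control means of 3.45, 5.68 and 6.34. Stage II arrays lay above all controls in 3 of the 12 subunits (25%), against 9.97% of all genes. Averages over the 12 overlapped, with deviations from the control means of 0.07 to 0.23 in stage II and -0.14 to 0.17 in controls. Cox6b1, a small subunit on the outer side of the membrane, ran from 11.82 through a median of 11.91 to 12.07 in controls and stood at 12, 11.94 and 11.87 in stage I. In stage II it stood at 12.23, 12.17 and 12.37, above every other array. The log2 difference was 0.34 ± 0.07 SE from controls, 26.2% higher (adjusted p = 0.00593), and 0.32 ± 0.08 SE from stage I (adjusted p = 0.0243). The call against stage I ended in 5 of 22 alternatives (adjusted p up to 0.0985), among them the fit without stage II replicate 3.

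Cox5a, a matrix-side subunit, ran from 12.05 through a median of 12.16 to 12.18 in controls and stood at 11.98, 12.01 and 12.17 in stage I. Its stage II arrays were all higher, at 12.25, 12.29 and 12.51, with replicate 3 well above the other two. The log2 difference from controls was 0.21 ± 0.07 SE (adjusted p = 0.0442) and from stage I 0.30 ± 0.08 SE (adjusted p = 0.0315). Without stage II replicate 3 neither call held. The call against controls also ended without any 1 control array, without stage I replicate 2 or stage II replicate 2, and under both quantile normalization and centring of the arrays (adjusted p up to 0.234).

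Several complex IV subunits exist as alternative isoforms, some widespread and some typical of particular tissues. Cox6a1, the widespread form, stood at 13.87, 13.79 and 13.88 in stage II, above the control range of 13.59 to 13.78, with a difference of 0.17 ± 0.06 SE that narrowly missed the threshold (adjusted p = 0.0503). A further probe set of it gave 0.26 (adjusted p = 0.012 in a fit of every probe set). Its heart and skeletal muscle counterpart Cox6a2 had 0.26 ± 0.09 SE (adjusted p = 0.061), at 6.64, 6.43 and 6.75 against 6.24 to 6.47 in controls. Each passed in 7 of 22 alternatives. Cox7a2 and Cox8a had 0.11 and 0.12 (adjusted p = 0.187 and 0.19). Cox4i2, the lung-type and oxygen-responsive form of subunit IV, had 0.08 (adjusted p = 0.648). Ndufa4, named as a complex I protein and now known as a complex IV subunit, had 0.16 ± 0.06 SE (adjusted p = 0.104).

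Cox7a1 varied more between control arrays than any other member. Control replicates 1 to 6 stood at 7.85, 6.15, 6.89, 8.14, 6.91 and 6.52. The stage I arrays read 6.26, 6.11 and 7.28, and those of stage II read 8.10, 7.03 and 7.46. Both stages overlapped the controls, and stage I overlapped stage II through its replicate 3 alone. Stage II differed from controls by 0.45 ± 0.43 SE (adjusted p = 0.505). The 3 highest arrays were control replicates 1 and 4 and stage II replicate 1. Their scores of 5 luteal markers (Star, Ptgfr, Akr1c18, Scarb1 and Parm1), as the mean log2 deviation from the control means, were 0.74, 0.98 and 0.58, and those of the other arrays ran from -1.37 to 0.27. In stage II the score rested on Parm1, which deviated by 2.93 in replicate 1, while the other 4 markers had group differences from -2.57 to -0.17. Without Parm1, a score computed after seeing the data, control replicates 1 and 4 were still the highest, at 0.85 and 1.07. Stage II replicate 1 was then at -0.0049, below stage I replicate 3 (0.17). Stage II replicate 3 was 4th highest in Cox7a1 but 11th in the score, at -0.67 with Parm1 and -1.63 without it. Stage II replicate 2 was 6th in Cox7a1 and 10th in the score without Parm1 (-1.06). Of markers of the tissues in which the isoform is known, Ucp1, the uncoupling protein of brown fat, was at 4.16 in controls and 4.10 in stage II, and Ckm, muscle creatine kinase, at 5.57 and 5.70. The lowest value of the table was 2.69. Of 10 striated muscle markers measured, 2 rose in stage II (Myh1 by 1.31 and Actn3 by 0.71) and 0 fell, or 20% called against 21% of all genes. The list median was 0.08, and 4 of the 10 were below controls. Scores of this list ran from -0.06 to 0.08 in controls, 0.0086 to 0.08 in stage I and 0.12 to 0.37 in stage II. Of 6 brown fat markers 1 rose (Fabp3, a fatty acid binding protein, by 2.39, and by 1.65 in stage I, where it was also called) and 2 fell. Of 6 adipocyte markers 1 rose and 2 fell, so 50% of each list was called. Brown fat scores ran from -0.10 to 0.10 in controls, 0.16 to 0.45 in stage I and 0.05 to 0.31 in stage II. They rested on Fabp3, since the list median was 0.031 in stage I and -0.045 in stage II, where 4 of 6 markers were below controls. Adipocyte scores ran from -0.53 to 0.48, -0.35 to 0.19 and -0.42 to -0.15 in the same order. The part of any of these cell types in Cox7a1 or Cox6a2 was not tested.

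**Figure D4:**
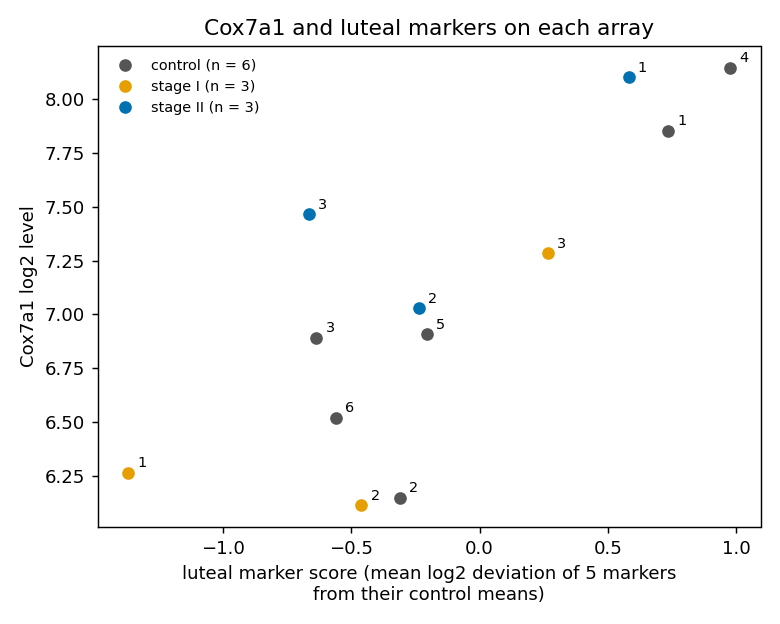
Cox7a1 log2 level (vertical axis) against the luteal marker score (horizontal axis, mean log2 deviation of 5 markers from their control means) on the 12 arrays, with replicate numbers beside the points. Control replicates 1 and 4 and stage II replicate 1 were highest on both axes. The score of stage II replicate 1 was 0.58 with Parm1 and -0.0049 without it. Stage II replicate 3 was 4th highest in Cox7a1 but 11th of the 12 arrays on the score (-0.67).

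Complex I was measured by 28 subunits, of which 1 rose and 1 fell in stage II (7.14% called, against 21% of all genes). Ndufs4, an accessory subunit needed for a stable complex, ran from 7.35 through a median of 7.52 to 7.64 in controls. It stood at 7.84, 7.67 and 7.61 in stage I and at 7.89, 7.77 and 7.91 in stage II. Stage II lay above all controls, while stage I replicate 1 lay within the stage II range. The log2 difference was 0.34 ± 0.07 SE from controls, 26.5% higher (adjusted p = 0.0079), 0.19 ± 0.07 SE in stage I (adjusted p = 0.696) and 0.15 ± 0.09 SE between the stages (adjusted p = 0.297).

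Ndufs3, a core subunit, ran from 11.29 through a median of 11.40 to 11.47 in controls, and stood at 11.43, 11.34 and 11.34 in stage I and at 11.23, 11.21 and 11.19 in stage II. The stage II arrays were the lowest of all, by -0.18 ± 0.06 SE from controls (adjusted p = 0.0397). The call was lost in 12 of 22 alternatives (adjusted p up to 0.178 over all alternatives). Among these were fits without any 1 of control replicates 1, 3, 4 and 5. The same held without stage I replicate 2 or 3, or without any 1 stage II array. The other 5 core subunits measured, Ndufs1, Ndufs7, Ndufs8, Ndufv1 and Ndufv2, which hold iron-sulphur clusters or the flavin, did not pass. Their differences lay between -0.17 and -0.10, and stage II did not overlap the controls in 4 of them, Ndufv1 being the exception. Over all genes, 12% were lower in stage II without overlap. Ndufa1, a small membrane subunit encoded on the X chromosome, had 0.20 ± 0.07 SE (adjusted p = 0.061).

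Of 6 complex I assembly factors, which help build the complex and leave it afterwards, 1 fell in stage II (16.7% called, against 21% of all genes). Ndufaf4 ran from 9.40 through a median of 9.63 to 9.70 in controls and stood at 9.41, 9.58 and 9.65 in stage I. It stood at 9.35, 9.33 and 9.15 in stage II, below all the others and lowest in replicate 3. The difference was -0.32 ± 0.08 SE (adjusted p = 0.0151). With stage II replicate 3 left out it was -0.26 and no longer passed (adjusted p = 0.0905). Ndufaf3, another assembly factor, had 0.18 (adjusted p = 0.251). Of 7 complex IV assembly factors 0 passed, at an unadjusted p under 0.05 likewise 0, and their differences lay between -0.11 (Cox10) and 0.16 (Cox16). Cox20 had 0.15 (adjusted p = 0.502) and Cox7a2l, which joins complexes III and IV, -0.01.

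ATP synthase was measured by 14 subunits, of which 0 rose and 2 fell in stage II (14.3% called, against 21% of all genes). Atp5a1, the alpha subunit of the catalytic head, ran from 12.67 through a median of 12.70 to 12.82 in controls. It stood at 12.66, 12.68 and 12.71 in stage I and at 12.56, 12.53 and 12.52 in stage II, without overlap. The difference was -0.18 ± 0.05 SE (adjusted p = 0.0234), and it ended without any 1 stage II array. A dim further probe set of the gene (mean level 7.69) gave 0.22 (adjusted p = 0.276 in a fit of every probe set), and the mean of both reversed the sign. Atp5o, the stalk subunit that joins head and membrane part, stood at 11.76, 11.79 and 11.85 as the lowest, median and highest control. It stood at 11.78, 11.75 and 11.78 in stage I and at 11.64, 11.66 and 11.59 in stage II. All stage II arrays were lower, by -0.17 ± 0.05 SE (adjusted p = 0.0262). The call was lost when control replicate 5, or either replicate 1 or 3 of stage II, was left out (adjusted p up to 0.199 over all alternatives). Atp5b, the beta subunit beside Atp5a1 in the head, had -0.03 ± 0.05 SE (adjusted p = 0.704), with stage II at 12.87, 12.87 and 12.91 and controls from 12.90 to 12.94. Atp5g1 and Atp5g2, which encode the same mature ring subunit, had 0.06 and -0.08 (adjusted p = 0.595 and 0.424).

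The members were also grouped by kind of subunit. The 17 core subunits were the 6 conserved core subunits of complex I, the 3 of complex II, Cyc1, and the 7 of the head, central stalk and ring of ATP synthase. They held 5 that fell and 0 that rose in stage II, and 15 of 17 were below 0 with a median of -0.13. The 46 accessory subunits held 1 that fell (Atp5o) and 4 that rose (Cox6b1, Cox5a, Uqcr10 and Ndufs4), and 31 were above 0 with a median of 0.055. The median over all genes was -0.014. Of the core subunits 29.4% were called and of the accessory subunits 10.9%, where 21% of all genes were. Within complex I the median was -0.14 over 6 core and 0.04 over 22 accessory subunits. Within ATP synthase no such division was seen, with medians of -0.06 and -0.05 and 1 of 7 that fell in each kind. Complex II held core members alone, complex IV accessory members alone, and complex III 1 core member, so kind and complex cannot be told apart there. Averaged over the core subunits, stage II replicates 1, 2 and 3 deviated from the control means by -0.13, -0.12 and -0.13, below the controls (-0.06 to 0.11) and stage I (-0.06 to -0.00013). Averages over the accessory subunits overlapped, at 0.02 to 0.10 in stage II and -0.10 to 0.14 in controls. This grouping was drawn up after the values were seen, so it is a description with no test. After quantile normalization 15 core subunits were again below 0. That fit lowered the median over all genes from -0.014 to -0.041 and the members above 0 from 41 to 38. A count below 0 could hardly drop under it, and the accessory subunits were not recounted, so it is no check of the division.

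**Figure D5:**
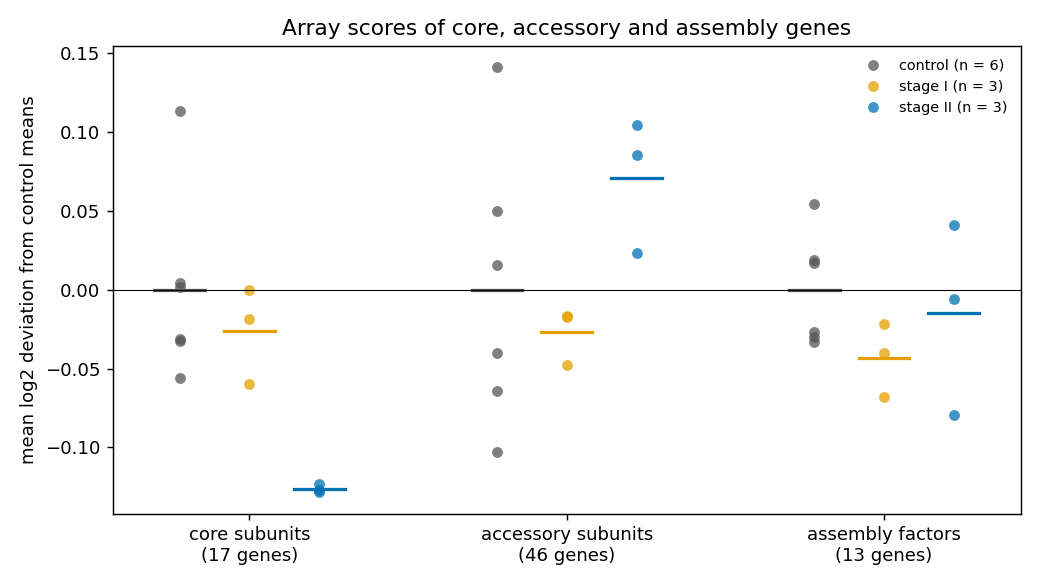
Mean log2 deviation from the control means over 17 core subunits, 46 accessory subunits and 13 assembly factors; each point is 1 array and each bar a group mean. Core scores in stage II lay between -0.13 and -0.12, below all other arrays, while accessory scores overlapped.

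Between the stages, 4 respiratory chain genes were called, or 5.19%, where 12.5% of all genes were. Sdhb and Cyc1 (2.6%) were lower in stage II than in stage I, against 5.97% of all genes, and Cox6b1 and Cox5a (2.6%) were higher, against 6.54%. At an unadjusted p under 0.05 there were 17 (22.1%), against 27.2%. In 30 of 77 (39%) the arrays did not overlap, 14 higher and 16 lower, against 31.6% of all genes (14.5% higher and 17.1% lower). All 77 differences lay between -0.42 and 0.98, the highest being that of Cox7a1 (0.98 ± 0.49 SE, adjusted p = 0.227), and their median was 0.04. This comparison uses the same stage II arrays as that with controls, so the calls are given side by side and not as support for each other. Of the 4, only Sdhb was called without stage II replicate 3. The count was 2 without any 1 of the stage I arrays, and 7 without control replicates 1 and 4. Without stage I replicates 1, 2 or 3, 10.4%, 5.77% and 5.53% of all genes were called. Without control replicates 1 and 4 that share was 15%.

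Of 8 other mitochondrial gene lists, 0 genes passed in stage I, where 0.192% of all genes were called. At an unadjusted p under 0.05 there were 2 ribosomal proteins, 1 assembly factor and 1 coenzyme Q gene, against 6.38% of all genes. Over all genes, the called share in stage II was 21%, with 9.81% higher and 11.2% lower. In stage II, 1 of 11 enzymes of the TCA cycle fell (9.09%), Fh1, fumarate hydratase (-0.18 ± 0.05 SE, adjusted p = 0.0255), with a list median of -0.06. Of 52 mitochondrial ribosomal proteins 7 fell and 1 rose (15.4% called), with a median of -0.0071. Mrpl37, Mrpl47 and Mrpl51, all of the large subunit, had the largest of these differences (-0.38, -0.33 and 0.30, adjusted p = 0.0017, 0.0054 and 0.0261). Of 18 assembly factors outside the symbol rule 3 fell and 2 rose (27.8% called). Lrpprc, which stabilises mitochondrial messenger RNAs, fell by 0.44 on the log2 scale (adjusted p = 0.0032). Ttc19, a complex III factor, fell by 0.40 (adjusted p = 0.0124), and Oxa1l, an insertase of the inner membrane, fell by 0.38 (adjusted p = 0.0088). Coa3, a complex IV factor, rose by 0.31 (adjusted p = 0.0057), and Sdhaf2, which helps attach the flavin to Sdha, rose by 0.21 (adjusted p = 0.0184).

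Of 8 enzymes of fatty acid oxidation 2 fell and 1 rose (37.5% called, against 21% of all genes). Among them were Cpt2, which delivers fatty acids in the matrix (-0.35, adjusted p = 0.0083), and Acaa2, a thiolase (-0.30, adjusted p = 0.0062). Acadvl, which starts the oxidation of very long chains, was the 1 that rose (0.21). Pdss2 was the 1 of 7 coenzyme Q genes that fell, 14.3% of the list (-0.32, adjusted p = 0.0084), at a low level of 4.22 in controls. Timm17a, an import channel protein, was the 1 of 16 import genes that rose, 6.25% of the list (0.23, adjusted p = 0.0243). Of 11 carriers, uncoupling and antioxidant proteins 0 passed (1 at an unadjusted p under 0.05). Of 6 measured regulators of mitochondrial biogenesis, all were below 0 and 1 fell (16.7%), Tfb2m, a mitochondrial transcription factor (-0.18, adjusted p = 0.0375). The differences reached up to -0.014, the median over all genes, and the list median was -0.07. Scores of the list overlapped, at -0.17 to -0.00026 in stage II and -0.12 to 0.08 in controls.

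Markers of ovarian cell types also differed in stage II, where 21% of all genes were called, 9.81% higher and 11.2% lower. Of 7 oocyte markers 7 fell, with a median of -0.81 and scores from -1.27 to -0.53 in stage II against -0.23 to 0.26 in controls. Of 5 granulosa markers 5 fell (median -0.72, scores -1.60 to -0.47 against -0.34 to 0.30). Among 5 markers of theca and interstitial cells, 4 fell and 1 rose, with scores from -1.43 to -0.45 against -0.23 to 0.24. Of 8 smooth muscle markers 7 fell (median -0.55). Of 5 macrophage markers 4 rose (median 0.50, scores 0.72 to 1.01 against -0.09 to 0.15). Of 4 oviduct and surface epithelium markers 1 rose, Krt8, a keratin of simple epithelia (3.59), and 2 were below controls. Scores of that list overlapped, at 0.02 to 1.71 in stage II and -0.78 to 1.58 in controls. Of the 5 luteal markers 1 rose, Parm1 (3.05), and 0 fell, and the 4 that did not pass were below controls (list median -0.29). In each of the oocyte, granulosa and theca lists, stage II replicate 3 had the lowest score. Of all 12 arrays it was also the lowest for each of the 7 respiratory chain genes that fell and the highest for each of the 4 that rose. These genes were called for their stage II difference, so a stage II array at the extreme was largely set by that choice. The choice did not set which stage II array it was, and it was replicate 3 each time. Replicate 3 of stage II also had the lowest array weight of the 12 arrays (0.33). The part of these cell types in the respiratory chain differences was not tested.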

How the data were processed

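The authors deposited log2 values, 1 per probe set and array. The scale was settled from the values (2.69 to 14.44), and the summary method, normalization and detection calls are not named in any source used here. Of 16376 probe sets in the table used here, 14674 had 1 gene symbol in the platform annotation, 427 several and 1275 none. Only the first kind was used. Of these, 14632 were found by Entrez identifier in RefSeq GRCm38.p6, which changed 0 symbols and served for chromosome, gene order and promoters. Genes with several probe sets were read from the one with the highest mean.

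limma 3.58.1 (lmFit and eBayes, R 4.3.3) estimated 1 mean per group from the 12 arrays together, with 9 residual and 3.13 prior degrees of freedom. P-values were adjusted by Benjamini-Hochberg over 10949 genes. The fit was tested on simulated data. Members, companion lists, marker lists and the rule for named genes were chosen with earlier results of these data known. The rule took, per role and comparison, up to 3 called members in each direction or else the largest difference, complex II, cytochromes, isoform sets and the extremes of control SD. Of companion lists it took up to 3 called members. Ucp1, Ckm, Inha, Zp3, the other core subunits of complex I, Ndufaf6, Ndufs5, Uqcrb, Uqcrc1, Uqcrc2, Cox6c, Cox7b2, Cox10, Atp13a2, Fabp3, Myh1, Actn3, Coa3, Sdhaf2, Krt8 and Parm1 were named after their values were seen. Alternatives were quantile normalization, centring, a filter on the dimmest 25% of genes, the mean of probe sets, array weights, a prior both trended and robust, fits on the compared groups alone, the replicate number as a block, and arrays left out. A fit of every probe set and a luteal score without Parm1 were added after seeing the data.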

Additional observations from a re-analysis of the deposited data

Results flagged for a closer look

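Among the 31 named genes, whose 6 control values were each examined for a single array standing apart by Dixon's criterion, 2 had such an array, and chance flags about 1 in 20. Both were control replicate 4. It stood at 11.58 in Atp5e, the epsilon subunit of ATP synthase, with the next control at 11.36. It stood at 12.82 in Atp5a1, with the next at 12.73.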

How the results depend on the processing

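Against controls, stage II gave 11 called respiratory chain genes, 22 with array weights and 3 with the replicate block (Sdhb, Cox6b1 and Ndufs4), and 4 to 12 with single arrays left out. The all-gene count of 2302 became 1090 with the block and 1145 to 2432 with arrays left out. Between the stages the 4 calls became 1 with the compared groups alone, 11 with array weights, 0 with the block (602 genes over all genes), 7 without control replicates 1 and 4, and 1 to 5 with arrays left out. All-gene counts there were 1370, 393 with the compared groups alone, 2308 with array weights and 605 to 1610 with arrays left out. The members' median there was 0.04, 0.0074 after quantile normalization and 0.027 to 0.053 with arrays left out. In stage I 0 members were called under every alternative run. The all-gene count of 21 became 6 with the block, 13 without control replicates 1 and 4, and 15 to 28 with arrays left out. Member medians with arrays left out ran from -0.033 to -0.00032 in stage I and from 0.00093 to 0.056 in stage II against control. The Atp5a1 difference was 0.021 with the mean of its 2 probe sets. Of the 11 named stage II calls against controls, 3 held in all alternatives and 8 did not. Of the 4 between the stages, 0 held in all, the block ending each. The labels share replicate numbers, but same-numbered arrays did not deviate together throughout (correlations of deviations -0.13 to 0.20). The block was therefore kept among the alternatives counted above and not used as the main fit. After quantile normalization the stage II calls over members were 3 higher and 10 lower, and the members' median was -0.018 (all genes -0.041). Without a measured background, small changes of dim genes such as Cox16 (about 4.4) and compression near the upper end are not resolved. The causes of these shifts were not tested.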

Other observations

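Of the 77 genes, 15 had 1 further probe set each, and 11 of these 15 shared the sign of the brightest in stage II against control. The 4 of opposite sign were those of Atp5a1, Ndufa12, Ndufa5 and Ndufab1. Ndufab1, which is both a complex I subunit and the mitochondrial acyl carrier protein, had -0.012 by its brightest probe set and 0.22 by the other (adjusted p = 0.928 and 0.158 in a fit of every probe set). These genes were named after their values were seen.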
